A study of Mus musculus with 5 samples.

Results

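The regions described here are peaks called with control IgG in introns of mouse Th1 cells, at sites where the Nr1d1 antibody gave no peak. They were chosen as the rows of the annotated IgG mock list in the class intron that shared 0 bp with any annotated Nr1d1 ChIP peak. The rule kept 3481 of the 4967 IgG intron peaks, out of 36694 annotated peaks in both lists together. Nr1d1 (REV-ERBα) is a nuclear receptor that represses genes of the circadian clock, and the study mapped its binding in Th1 cells by ChIP-seq. All libraries came from CD4 T cells that were taken naive from C57BL/6 mice, wild-type and 4 to 6 weeks old, stimulated through CD3 and CD28, polarised with IL-12, IFNγ and anti-IL4, and fixed in formaldehyde after 3 to 4 days. The titles give 3 Nr1d1 ChIP libraries, 1 IgG mock pull-down and 1 input, and each antibody has 1 peak list over the input. The antibody label names Nr1d1 for all of them, so the mock rests on its title. The lists hold no read counts, so read depth is unknown, and no expression values, so the Th1 label could not be checked against marker genes. With 1 IgG library, every interval below covers the counting of peaks only, and every p-value compares lists of peaks and treats peaks as independent, which peaks of 1 gene need not be.

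An IgG mock uses an antibody without a target in the cells, and it shows which DNA is recovered by unspecific binding, by uneven shearing or by uneven mapping of reads. Such sites are the background against which the peaks of a specific antibody are read. Introns make up most of a gene's body, and the longest mouse genes, many of them for neuronal adhesion molecules, receptors and channels, consist almost wholly of them. Genes that define T cells are mostly of moderate length.

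Few of these peaks lay at an annotated start of transcription, which the choice of the class intron sets, and those that did mostly lay in GC-rich DNA. Peaks at starts form a separate class of the annotation, promoter-TSS, with 935 IgG peaks, of which 477 shared no base with a ChIP peak. The low shares below therefore show no avoidance of starts, in these peaks or in the other intron sets. Of the 3481 peaks, 11 (0.316%, Wilson 95% interval 0.177 to 0.565) shared bases with one of 32851 promoter windows of RefSeq (GRCm38.p6, 250 bases before to 50 after a start). The shares were 0.538% (0.273 to 1.06) for IgG intron peaks over a ChIP peak and 0.404% (0.256 to 0.638) for ChIP-specific intron peaks, intervals that overlap. The windows below show the range of base composition among the 11, and 5 of the 6 belong to another start than that of the deposited nearest gene. They are written 5′ to 3′ on the strand of the gene named first, with the bases inside the IgG peak in capitals.
Gm33097, at Jazf1 (chr6:53067946-53068245, minus strand): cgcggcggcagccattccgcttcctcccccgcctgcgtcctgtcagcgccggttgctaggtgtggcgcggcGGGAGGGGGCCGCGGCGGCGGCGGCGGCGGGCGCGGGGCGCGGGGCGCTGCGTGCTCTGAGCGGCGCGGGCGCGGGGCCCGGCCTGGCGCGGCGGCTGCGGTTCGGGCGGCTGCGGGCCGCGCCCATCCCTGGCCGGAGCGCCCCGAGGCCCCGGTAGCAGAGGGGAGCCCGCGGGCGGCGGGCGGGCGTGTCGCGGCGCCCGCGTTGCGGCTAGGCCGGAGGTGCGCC
5830433I10Rik, at Chd1 (chr17:15705328-15705627, minus strand): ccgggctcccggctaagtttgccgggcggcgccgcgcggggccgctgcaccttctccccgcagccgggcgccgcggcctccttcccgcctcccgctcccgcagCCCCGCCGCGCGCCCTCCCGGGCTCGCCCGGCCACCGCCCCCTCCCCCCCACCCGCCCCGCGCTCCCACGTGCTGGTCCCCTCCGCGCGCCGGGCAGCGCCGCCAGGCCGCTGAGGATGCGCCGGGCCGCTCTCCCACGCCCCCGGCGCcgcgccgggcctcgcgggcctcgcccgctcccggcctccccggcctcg
Gm35158, at Dusp22 (chr13:30659994-30660293, minus strand): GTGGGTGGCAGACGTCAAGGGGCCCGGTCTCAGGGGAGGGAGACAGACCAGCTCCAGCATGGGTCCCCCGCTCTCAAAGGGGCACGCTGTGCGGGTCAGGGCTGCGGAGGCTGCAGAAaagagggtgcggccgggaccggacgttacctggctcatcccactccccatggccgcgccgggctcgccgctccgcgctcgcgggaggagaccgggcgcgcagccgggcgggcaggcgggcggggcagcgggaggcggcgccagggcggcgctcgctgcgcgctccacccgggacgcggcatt
Gm31954, at Ntn1 (chr11:68400150-68400449, plus strand): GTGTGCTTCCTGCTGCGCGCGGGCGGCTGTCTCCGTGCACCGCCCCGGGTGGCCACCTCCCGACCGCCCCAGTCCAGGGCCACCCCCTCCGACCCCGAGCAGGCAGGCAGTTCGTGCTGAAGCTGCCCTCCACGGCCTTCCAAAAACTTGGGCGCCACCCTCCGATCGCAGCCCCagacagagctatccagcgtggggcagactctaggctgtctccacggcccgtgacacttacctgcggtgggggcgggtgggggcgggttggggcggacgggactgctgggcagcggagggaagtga
Sall1 (chr8:89043463-89043762, minus strand): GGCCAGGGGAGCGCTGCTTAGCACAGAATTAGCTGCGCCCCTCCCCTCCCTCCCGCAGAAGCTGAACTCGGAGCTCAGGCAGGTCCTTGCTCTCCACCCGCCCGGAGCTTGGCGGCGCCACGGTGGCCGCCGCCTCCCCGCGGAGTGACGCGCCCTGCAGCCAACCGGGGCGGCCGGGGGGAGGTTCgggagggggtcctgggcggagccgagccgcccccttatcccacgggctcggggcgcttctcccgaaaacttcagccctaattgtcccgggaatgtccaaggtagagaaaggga
Gm36146, in Armh4 (chr14:49718204-49718503, plus strand): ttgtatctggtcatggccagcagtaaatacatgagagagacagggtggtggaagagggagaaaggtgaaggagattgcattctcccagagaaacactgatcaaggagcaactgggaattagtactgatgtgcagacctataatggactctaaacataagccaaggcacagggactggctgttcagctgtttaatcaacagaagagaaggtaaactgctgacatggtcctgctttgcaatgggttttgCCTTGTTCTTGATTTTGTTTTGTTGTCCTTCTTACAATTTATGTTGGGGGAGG

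The window at Jazf1, a zinc finger cofactor gene, had a GC content of 84.3% and 57 CG dinucleotides, and its IgG peak had an FDR printed as 0. At Chd1, which encodes a chromatin remodeller, the window had 85.3% GC, and its peak had an FDR of 0.0377. The windows at Dusp22, a phosphatase gene, at Ntn1, which encodes the guidance cue netrin-1, and at Sall1, a developmental zinc finger gene, had 75.7%, 71.0% and 70.0% GC. The window in Armh4 stood at the other end with 44.3% GC and 0 CG dinucleotides. Over the 11 windows the median was 67.3%, and 7 lay above the upper quartile of all windows, whose median was 52.7% and whose quartiles were 45.7% and 61.7%. The windows at shared IgG intron peaks (9) and at ChIP-specific intron peaks (21) had medians of 58.0% and 58.3%. The hexamer AGGTCA, the core of nuclear receptor sites (TGACCT on the other strand), was found in 2 of the 11 windows and in 16.3% of all windows. It was in 0 of the 11 stretches inside a peak. These had 29 to 254 of the 300 bases of a window, so the 0 cannot be set against the 16.3% and shows no lack of sites. None of the 3481 peaks lay over one of the 1005 miRNA hairpins of the same annotation. No share of the other intron sets is given beside it, so this count shows no avoidance of hairpins.

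Most IgG intron peaks had no ChIP counterpart, and these were the weaker ones. In introns 70.1% of IgG peaks (68.8 to 71.3) shared no base with a ChIP peak, against 51.0% (47.8 to 54.2) at promoters, 57.6% in exons, 64.8% at termination sites and 72.8% in intergenic DNA. Ordered by FDR, the share was 26.1% (23.3 to 29.1) where the FDR was printed as 0, 59.9% up to 0.001, 74.9% from there to 0.01 and between 84.2% and 87.2% in each class above. Ordered by length, it fell from 88.3% (85.0 to 90.9) at 100 bp to 23.5% (19.9 to 27.5) at 325 to 400 bp. Some fall with length is built into the rule, since a longer peak more easily shares a base with a ChIP peak. Both orders ran the same way. At 100 to 200 bp, peaks with an FDR printed as 0 were IgG-only in 55.4% (44.1 to 66.2) and the others in 83.6% (82.2 to 85.0). Above 300 bp the shares were 12.4% (9.54 to 15.9) and 71.4% (61.4 to 79.7), so the FDR divided the peaks within a length class too.

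**Figure D1:**
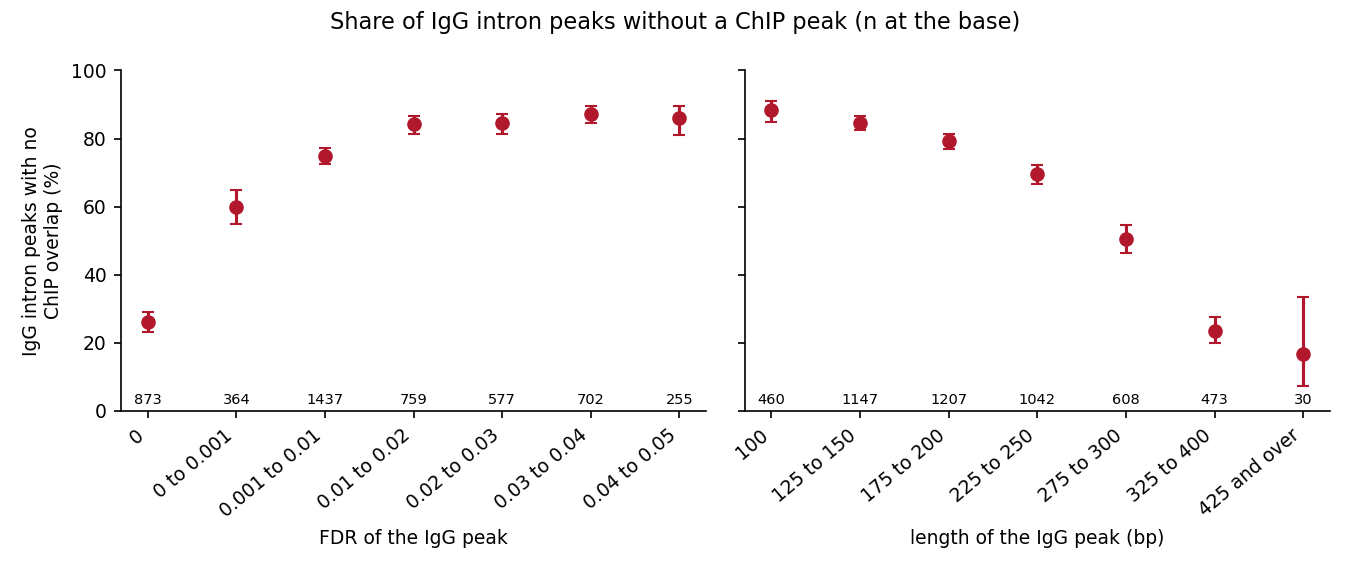
Share of IgG intron peaks that share no base with a ChIP peak (y axis, percent), by FDR of the peak (left) and by its length in bp (right), with Wilson 95% intervals and the number of peaks at the base. The share rises from 26.1% at an FDR printed as 0 to over 84% above 0.01, and falls from 88.3% to under 25% with length.

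The boundary of the rule was sharp for most peaks. Just inside it, 8 peaks adjoined a ChIP peak, with 1 base between them in the annotated coordinates, 15 lay within 100 bp and 95 (2.73%) within 1 kb, while the median gap to the nearest ChIP peak was 28151 bp. The first of the 8 by FDR lay in Myh1, a muscle myosin gene (chr11:67214651-67215024, FDR 0.000281), and 3 others lay at Lhfpl1, in the neuronal adhesion gene Cntn5 and at Pcsk1n, an inhibitor of prohormone convertase. The remaining peak of the first 5 was nearest to the predicted gene Gm11823. Just outside, the smallest overlap of a shared IgG intron peak was 49 bp, in 5 peaks, and in 54 shared peaks less than 50% of the bases were covered.

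The IgG-only intron peaks were short and of moderate significance. Their length ran from 100 to 625 bp with a median of 175 bp (quartiles 125 and 225), and their median FDR was 0.0151 (quartiles 0.00332 and 0.0289). For the 1486 shared IgG intron peaks the medians were 250 bp and 0.000934. An FDR printed as 0 was found for 228 of the IgG-only peaks (6.55%) and for 645 of the shared ones (43.4%), or -36.9 percentage points for the first minus the second (95% interval from -39.5 up to -34.2; two-sided Fisher's exact test, adjusted p = 1.28e-196 over 11 tests). More than 200 bp were reached by 33.0% and 67.6%, a difference of -34.7 points (-37.4 to -31.8; Fisher's exact test, adjusted p = 2.2e-112). Length enters the rule itself, as a longer peak more easily shares a base with a ChIP peak. Part of this difference is therefore set by the choice, and the p-value does not separate that part. Against the 7439 IgG-only intergenic peaks the share over 200 bp differed by 0.313 points (-1.57 to 2.21; Fisher's exact test, adjusted p = 0.835). The share with an FDR printed as 0 was 1.20 points higher in introns (0.258 to 2.20; Fisher's exact test, adjusted p = 0.0183), a call that was lost without chromosomes X and Y (adjusted p = 0.0556 in Fisher's exact test) and among peaks with an FDR of at most 0.01 (adjusted p = 0.203).

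In order of FDR and then of length, the first peak was 625 bp long and lay in Dgkk, which encodes a diacylglycerol kinase (chrX:6857501-6858124). The next ones, each 400 bp long, lay in Fam217a (chr13:34916876-34917274), in Tdrd12, a tudor domain gene of the germline (chr7:35534976-35535374), and in Dock1, which encodes an activator of the GTPase Rac (chr7:135172026-135172424). The deposited annotation gives 1700120G07Rik, the nearest start, for the last of these. The other peaks among the first 10 were 375 or 350 bp long and lay in Fam174b, in Palld, the gene of an actin-associated protein, in the amino acid transporter gene Slc36a4, near Gm4986 and, at 2 sites, in Pkhd1, a gene of the primary cilium of kidney tubules. All 10 had an FDR printed as 0, and all were at least 1851 bp from a ChIP peak.

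IgG-only intron peaks lay farther from starts of transcription than either of the other intron sets. Their median distance to the nearest start was 31024 bp (quartiles 10530 and 75989), against 19908 bp for shared IgG intron peaks and 23957 bp for the 4452 ChIP-specific ones. Within 10 kb of a start were 24.1% of them, 33.9% of the shared peaks and 29.2% of the ChIP-specific peaks. The differences were -9.81 points (-12.6 to -7.04; Fisher's exact test, adjusted p = 7.69e-12) and -5.08 points (-7.02 to -3.12; Fisher's exact test, adjusted p = 1.21e-06). The nearest gene was a predicted or Rik gene for 35.4%, against 31.4% (difference 4.00 points, 1.13 to 6.81; Fisher's exact test, adjusted p = 0.0105) and 32.0% (3.38 points, 1.28 to 5.48; Fisher's exact test, adjusted p = 0.00309). The first of these lost its call among peaks with an FDR of at most 0.01 (3.08 points; Fisher's exact test, adjusted p = 0.178).

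The 5 peaks nearest to a start were at Dsg2, which encodes a desmosomal cadherin (104 bp, FDR printed as 0), Bex1 (105 bp), Smim17 (112 bp), Reln, the gene of the extracellular guidance protein reelin (144 bp), and Dusp22 (152 bp). Their FDR ran from 0 to 0.0364, and the nearest ChIP peak was at least 17826 bp away from each. Near the start of a gene, IgG-only peaks were not absent. The first 1 kb of protein-coding bodies held 41 of them, or 2.37 per Mb (exact Poisson 95% interval 1.70 to 3.22), against 1.33 (1.15 to 1.52) from 5 to 20 kb. ChIP-specific intron peaks had 4.34 (3.41 to 5.44) and 2.38 (2.14 to 2.64) per Mb in the same stretches.

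The density of these peaks was low and level in short genes and higher in each size class above 50 kb, and the other intron peaks were densest in the longest genes too. Of the 3481 peaks, 3080 (88.5%) lay wholly in the body of a protein-coding RefSeq gene, 241 in other genes only and 160 in no RefSeq gene. Over all protein-coding bodies, 1032 Mb, they had a density of 2.98 per Mb (2.88 to 3.09). In genes under 20 kb it was 1.10 per Mb (0.897 to 1.34), in those of 20 to 50 kb 1.04 (0.887 to 1.21), in those of 100 to 200 kb 2.23 (2.03 to 2.45), and in the 59 genes over 1 Mb 6.80 (6.24 to 7.40). ChIP-specific intron peaks went from 1.84 (1.57 to 2.14) to 6.83 (6.26 to 7.43), and shared IgG intron peaks from 0.725 (0.560 to 0.924) to 2.0 (1.70 to 2.34). Of all IgG-only and ChIP-specific intron peaks, the IgG-only ones were 37.5% (31.9 to 43.5) in genes under 20 kb, 32.1% (28.3 to 36.2) between 20 and 50 kb, the lowest class, and 49.9% (46.9 to 52.9) above 1 Mb. Together with the shared peaks instead, the shares were 60.4% (52.7 to 67.5), 53.3% (47.8 to 58.8) and 77.3% (74.0 to 80.2). These size classes were formed after earlier counts had been seen, so no test is given.

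**Figure D2:**
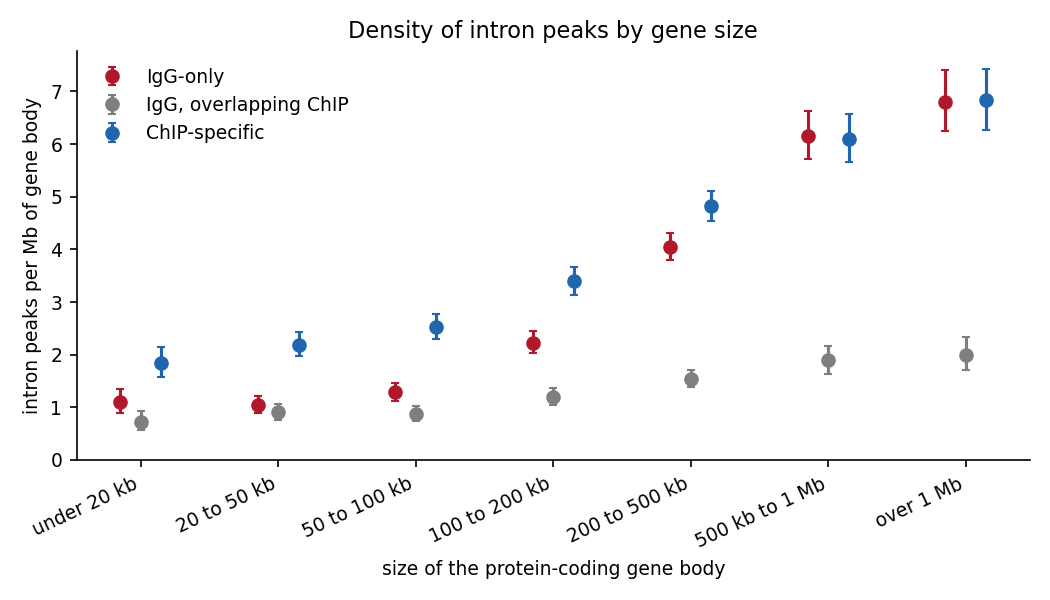
Intron peaks per Mb of gene body (y axis) by size class of the protein-coding gene (x axis), for IgG-only peaks, IgG peaks over a ChIP peak and ChIP-specific peaks, with exact Poisson 95% intervals. IgG-only peaks go from 1.10 to 6.80 per Mb and stand beside 6.83 for ChIP-specific peaks in genes over 1 Mb.

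Within long genes the peaks had no preferred end. In the 1866 genes of 100 kb or more with a known strand, the 5 equal parts of the body from start to end held 20.1%, 20.2%, 19.9%, 20.5% and 19.3% of 1901 peaks, with intervals that all include 20%. ChIP-specific intron peaks had 21.7% (20.1 to 23.5) in the first part and 18.2% (16.6 to 19.8) in the last. Counted by distance from the start instead, the density reached 6.82 per Mb (6.18 to 7.50) beyond 500 kb, a stretch that exists in the longest genes alone.

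A small group of very long genes carried many of the peaks. Of the 1280 genes with a peak in the body, which were 5.85% of 21887 protein-coding genes, 738 had a single one and 42 had 10 or more. These 42 genes were 428 kb or longer and held 603 peaks (17.3%). Each of the 42 also held ChIP-specific intron peaks, which is common at such lengths. Of all genes from 200 to 500 kb 60.3% held one, from 500 kb to 1 Mb 86.9%, and over 1 Mb 100%. Over all genes, 751 had both kinds, which was 58.7% of the genes with an IgG-only and 38.0% of those with a ChIP-specific intron peak. Of the 21887 protein-coding genes, 1974 held a ChIP-specific intron peak, and both kinds were more frequent in longer genes.

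The deposited annotation names the gene with the nearest start, and this hid several of the main host genes. It gave 1991 nearest genes, 16.3% of the 12186 genes that either list names as nearest. Among those with the most IgG-only intron peaks were Nrxn3 (19), Ntm (15), Dmd (13), and Gm11484, Spock1, Trim32 and Dlgap1 (11 each). Nrxn3 encodes neurexin 3, a presynaptic adhesion protein, and Ntm neurotrimin, a neuronal adhesion molecule. Dmd encodes dystrophin, Spock1 a proteoglycan and Dlgap1 a scaffold of the postsynapse. All 22 peaks counted for Gm11484 and Trim32, however, lay in the body of Astn2, a gene of neuronal migration, which was itself nearest to 1.

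Counted by the body that holds the peak, Dmd had 24 over 2390 kb, Ntm 23 (23.7 per Mb), Astn2 23 (22.5 per Mb), Csmd1 22 (13.4 per Mb) and Nrxn3 21 over 1612 kb. These genes were named for their counts, so 3 densities above the mean of 2.98 per Mb over all bodies are no result. Genes from 500 kb to 1 Mb, the class of Ntm, had 6.16 per Mb, and genes over 1 Mb, the class of Astn2 and Csmd1, had 6.80. In Astn2 the 23 peaks faced 1 shared IgG and 13 ChIP-specific intron peaks, whereas Dmd had 3 and 30. Of the peaks in a protein-coding body, 57.4% were assigned to a gene that holds them. Other hosts hidden in this way, named after their values were seen, were Cdh13, with 20 peaks of which 9 were given to Gm22999, Erc2, with 9 of 13 given to Wnt5a, and Il1rapl1, with 14 of which none was given to Il1rapl1.

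**Figure D3:**
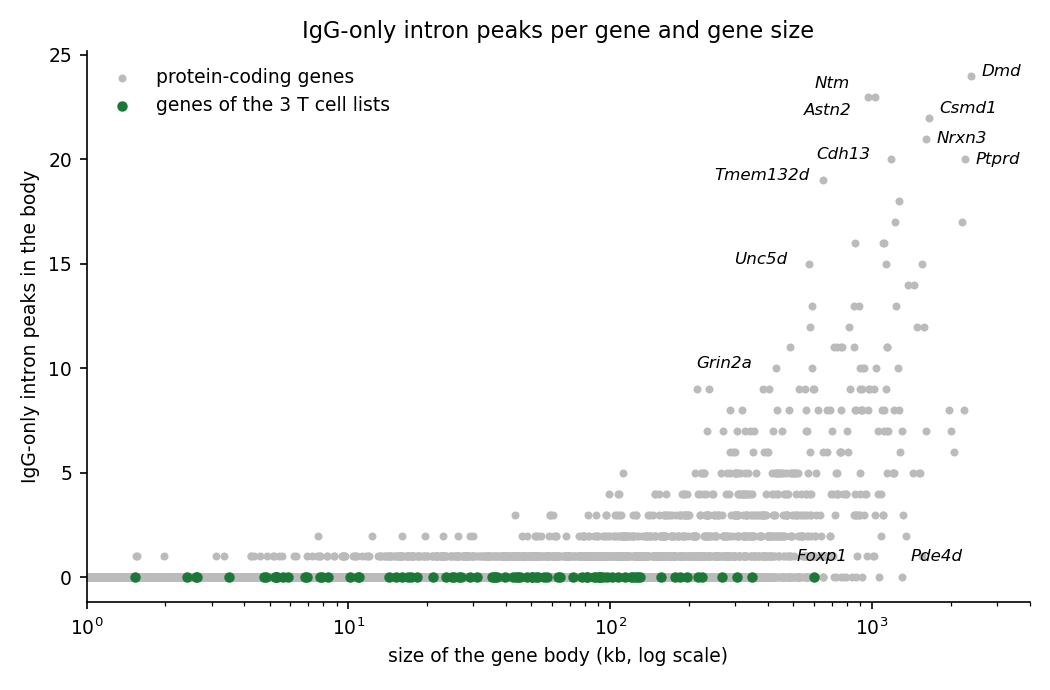
Number of IgG-only intron peaks in the body of each protein-coding gene (y axis) against the size of the body in kb (x axis, log scale from 1 kb), with the genes of 3 T cell lists in green. The highest points are Dmd with 24 and Ntm and Astn2 with 23, and every gene of the 3 T cell lists lies at 0.

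Neighbouring IgG-only peaks formed short runs in some introns. With gaps of at most 10 kb, 573 peaks (16.5%) stood in 266 runs of 2 or more, and 29 runs had 3 or more. The longest runs had 6 peaks each, in 29424 bp of Slit3, which encodes an axon guidance ligand (chr11:35233901-35263324), and in 28524 bp of Csmd2 (chr4:128092126-128120649). Cdh13, the gene of a cadherin without a cytoplasmic part, had a run of 5 (chr8:118784401-118802724). Runs of 4 lay in Shroom4, Cdh12, Spock1 and Ephb1.

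Genes of neuronal adhesion and signalling held IgG-only intron peaks at a density above that of all genes of their size. These lists, like the others, were drawn up with earlier results of these data known, and no test is given for them. In 6 such lists, 114 of 179 genes (63.7%) had a peak in the body, against 5.85% of all protein-coding genes. These 2 shares are not matched for size, as the listed genes had a median of 291 kb. Of all genes under 20 kb 0.802% had a peak, of those from 200 to 500 kb 48.2% and of those from 500 kb to 1 Mb 79.2%. They held 555 peaks, or 7.38 per Mb (6.78 to 8.02), where the densities of the matching size classes would give 410. ChIP-specific intron peaks numbered 534 there, where their own densities would give 433, so both kinds stood above the size classes.

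Among 26 genes of glutamate receptors, the main excitatory receptors of the brain, 18 had a peak in the body, 78 peaks in all and 8.32 per Mb (6.58 to 10.4). By nearest start these were 8 genes, among them Grin2a (10), Gria1 (8) and Grik2 (4). Grin2a had 23.4, Gria1 25.1 and Grik2 5.74 per Mb of body, and as they were named for their counts, these densities are no result. Grin2a and Gria1 also held 10 and 8 ChIP-specific intron peaks, as many as IgG-only ones. Grin2a encodes a subunit of the NMDA receptor and Gria1 one of the AMPA receptor. Of 19 GABA-A receptor genes, whose products form inhibitory chloride channels, 7 had a peak in the body, 16 peaks in all, and by nearest start Gabrg3 had 7 and Gabra5 had 1. Their density of 5.93 per Mb (3.39 to 9.64) has an interval that overlaps that of the glutamate receptors.

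Of 46 genes of neurexins, contactins and other synaptic adhesion proteins, 34 had a peak in the body, 233 peaks in all and 7.43 per Mb (6.50 to 8.44), where the size classes would give 193. Behind Nrxn3 and Ntm, the genes with the most peaks by nearest start were Opcml and Ptprd with 10 each. Opcml encodes an adhesion molecule related to neurotrimin, and Ptprd a receptor phosphatase of synapse formation.

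Among 24 cadherins, which join cells through calcium-dependent contacts, 17 had a peak in the body, with 8.37 per Mb (6.66 to 10.4), and Pcdh15 (7 by nearest start), Cdh13 (6), Cdh18 (3) and Cdh4 (3) led. Of 36 axon guidance genes, 25 had one, with 6.96 per Mb (5.61 to 8.55), and the netrin receptor gene Unc5d was first by nearest start (9), followed by Epha6 (5), Sema5a (4) and Epha4 (3). Of 28 genes of potassium channels and their partners, 13 had one, with 6.15 per Mb (4.64 to 8.01), and Kcnip4 (6), Kcnma1 (5), Kcnab1 (4) and Kcnh1 (3) led. The size classes, which include the listed genes, would give 52.7 peaks against 82 for the cadherins and 48.6 against 78 for the glutamate receptors. The counts were 64.9 against 91 for axon guidance, 193 against 233 for synaptic adhesion and 40.8 against 55 for the potassium channels. For the GABA-A receptors they were 10.2 against 16, and the density of size-matched genes lay inside the interval of 3.39 to 9.64 per Mb. The intervals take peaks as independent and the lists were drawn up with earlier results known, so these counts are a description and no test. ChIP-specific intron peaks also numbered more than their own size classes would give in each of these lists, though not always by much. The counts were 55.9 against 78 for cadherins, 51.8 against 74 for glutamate receptors and 45.8 against 63 for potassium channels. They were 197 against 229 for synaptic adhesion, 70.8 against 75 for axon guidance and 12.1 against 15 for GABA-A receptors. For axon guidance and GABA-A receptors the density of size-matched genes lay inside the ChIP-specific intervals, 4.51 to 7.19 and 3.11 to 9.17 per Mb.

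The list of long genes with giant introns, which shares Pcdh15, Cdh13, Pcdh9 and Kcnip4 with the lists above, had the density of its size classes. Of its 38 genes, 37 were found, and 36 of them had a peak in the body. The 308 peaks, 6.86 per Mb (6.12 to 7.67), were close to the 298 that the size classes give, as were the 304 ChIP-specific peaks to 299. By nearest start Dmd was first (13), and Csmd1 (10) and Ctnna2 (9) were among the next. Csmd1 encodes a complement-regulating membrane protein and Ctnna2 a catenin of neurons.

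The T cell genes of 3 chosen lists held no IgG peak of any kind, and genes outside these lists are not covered by this count. In the bodies of 82 genes of Th1 identity, of T cell receptor signalling and costimulation, and of lymphoid transcription factors, 5.85 Mb in all, 0 IgG-only intron peaks were found, a count whose exact Poisson 95% interval reaches 0.630 per Mb (the limit of 3 peaks over this length is 0.513). The densities of the size classes would give 15.6. IgG peaks of all annotation classes, shared ones included, numbered 0 too. The absence of Th1 genes from the IgG list was known beforehand, and all 3 lists were drawn up with earlier results known. The count of 0 is therefore no independent result. By list, the lymphoid factors had 0 in 3.10 Mb, where size classes would give 10.7, and the receptor and costimulation genes 0 in 2.14 Mb (4.06). The Th1 genes had 0 in 0.617 Mb (0.843), a length too small to judge, and a deficit was not tested in any of the lists.

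The longest of these genes had no IgG peak either. Foxp1, which encodes a forkhead factor of lymphocyte quiescence, spans 597 kb and had 0 IgG and 0 ChIP peaks. Of all 168 protein-coding genes from 500 kb to 1 Mb, 133 (79.2%) held an IgG-only intron peak, and Foxp1 was among the others. Bach2, a gene that restrains effector differentiation (348 kb), Tox (305 kb), Tcf12 (268 kb) and Runx1 (225 kb) had 0 of either kind as well. The ChIP list was not empty in these bodies. It had 10 peaks, all without IgG overlap, of which 8 were intronic, among them 2 in Ikzf1 and 1 each in Cblb, Bcl11b, Nfatc3 and Havcr2, where size classes would give 21.1. The ChIP-specific density was 1.37 per Mb (0.590 to 2.69), against 3.81 over all bodies, so it too lay below the mean.

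Genes without any IgG peak were not limited to the T cell lists. Of 990 protein-coding genes of 200 kb or more, 278 (28.1%) had 0 IgG peaks in the body, and none of the 59 over 1 Mb did. The longest, listed by size after their values were seen, were Inpp4b, which encodes a lipid phosphatase (792 kb), Arhgap26 (775 kb), Zbtb20 (759 kb), Cacna1c (610 kb), Mast4 (603 kb) and then Foxp1. Rabgap1l (574 kb), Slc9a9 (561 kb), Lrba (559 kb) and Dock2 (557 kb) followed. The order went on with Rad51b, Ptprk, Atrnl1, Gmds and Syt1 (513 kb), and no share of immune genes was computed.

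**Figure D4:**
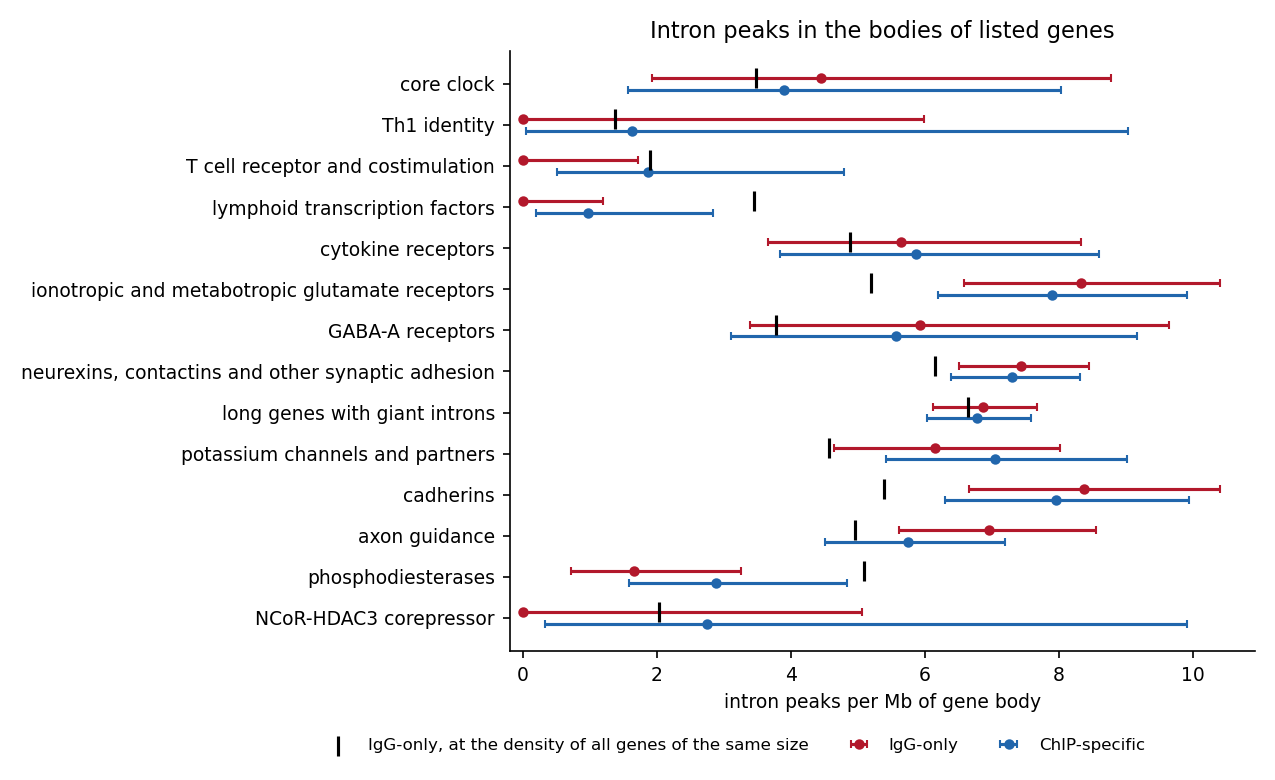
Intron peaks per Mb of gene body (x axis) in 14 gene lists, IgG-only in red and ChIP-specific in blue, with exact Poisson 95% intervals. Black ticks mark the IgG-only density that all genes of the same size classes would give, and the 3 T cell lists lie at 0 while the glutamate receptor and cadherin lists lie above 8.

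The remaining lists were mixed. Of 22 core clock genes, 3 were nearest to an IgG-only intron peak, Rora with 3, Rorb with 2 and Arntl with 1. Rora and Rorb encode the receptors that compete with Nr1d1 for its sites. Rora had 4 in its body, 1 of them 325 bp long with an FDR printed as 0 (chr9:68787326-68787649), beside 5 shared IgG and 0 ChIP-specific intron peaks, whereas Rorb had 2 beside 1 and 5. With the peak inside Cry1 the list held 8, or 4.45 per Mb (1.92 to 8.77), where size classes would give 6.26.

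Of 29 cytokine receptor genes, 3 had a peak in the body, and all 25 peaks lay in Il1rapl1 (14), Il1rapl2 (6) and the growth hormone receptor gene Ghr (5). Il1rapl1 and Il1rapl2 resemble interleukin-1 receptors, but are known as neuronal proteins on the X chromosome. By nearest start only Ghr and Il1rapl2 had one. The size classes would give 21.6 for the whole list. The other 26 receptor genes, those of interleukin-2 and interleukin-7 among them, span 1.52 Mb. They are what is left without those 3, so their count of 0 was set by the choice and shows no deficit. Among 13 phosphodiesterase genes, whose products degrade cyclic nucleotides, 8 peaks were found in Pde1c, Pde3a and Pde7b, or 1.65 per Mb (0.711 to 3.25), where size classes would give 24.7. The other intron sets were low there too, with 14 ChIP-specific peaks against 26.7 and 5 shared IgG peaks against 8.27. By nearest start Pde1c was the single one. Pde4d, named after its values were seen, had 0 in 1302 kb, with 2 shared IgG intron peaks. The 9 genes of the NCoR-HDAC3 corepressor had 0 in 0.729 Mb and 46 ribosomal protein genes 0 in 0.180 Mb, where 1.48 and 0.198 would be given.

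The X chromosome was rich in these peaks relative to the autosomes. Protein-coding bodies on X held 5.93 per Mb (5.25 to 6.68), against 2.85 (2.74 to 2.96) on the autosomes, a ratio of 2.08. The ratio was 2.03 for shared IgG and 1.90 for ChIP-specific intron peaks. On X lay 322 of the 3481 peaks (9.25%), and this share differed from that of the shared peaks by 0.0981 points (-1.72 to 1.79; Fisher's exact test, adjusted p = 0.957) and from that of the ChIP-specific peaks by 0.782 points (-0.472 to 2.06; Fisher's exact test, adjusted p = 0.283). The latter passed the threshold with 1 peak per nearest gene (2.51 points; Fisher's exact test, adjusted p = 0.00511) and among peaks with an FDR of at most 0.01 (2.61 points, adjusted p = 0.014 in Fisher's exact test). Against the IgG-only intergenic peaks, 12.4% of which lay on X, the share was different by -3.16 points (-4.35 to -1.91; Fisher's exact test, adjusted p = 2.27e-06), and it was -0.764 points among peaks with an FDR of at most 0.01 (Fisher's exact test, adjusted p = 0.497).

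Among the autosomes, chromosome 15 had the highest density, 4.07 per Mb (3.47 to 4.75), and chromosome 2 the lowest, 1.28 (1.04 to 1.55), followed by chromosome 13 with 1.60 (1.24 to 2.04). Chromosome 2 was also lowest for shared IgG peaks, with 0.689, and for ChIP-specific intron peaks, with 2.29 (1.97 to 2.64). Relative to the autosomal mean, chromosome 2 stood at 0.449 for IgG-only, 0.565 for shared and 0.624 for ChIP-specific peaks. The Y chromosome had 5 peaks in protein-coding bodies, too few for a density of useful precision.

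**Figure D5:**
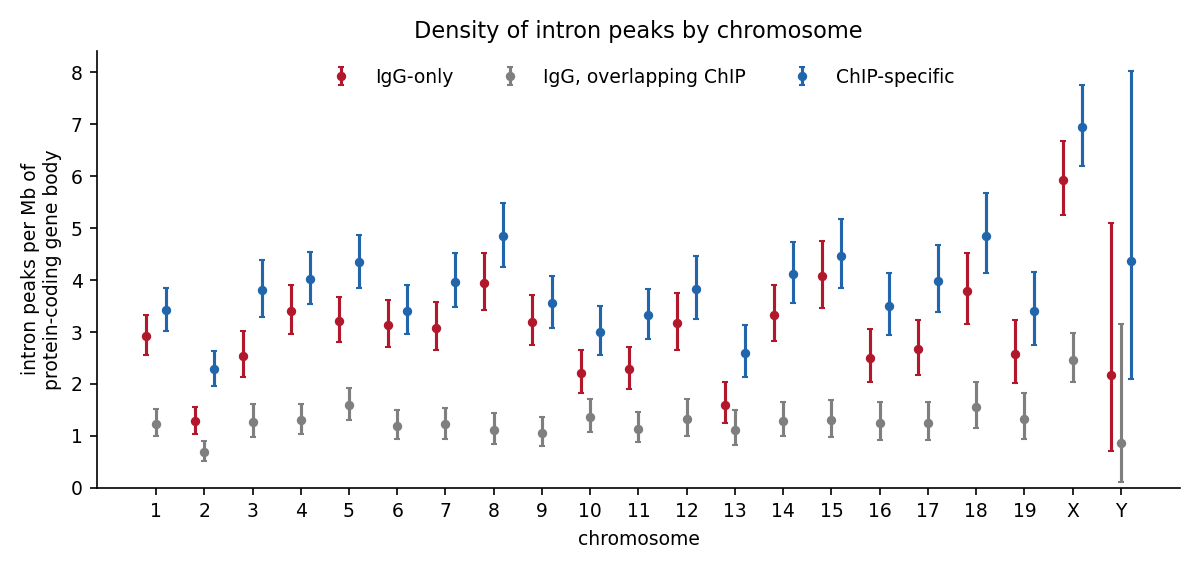
Intron peaks per Mb of protein-coding gene body (y axis) on each chromosome (x axis), with exact Poisson 95% intervals, for IgG-only, shared IgG and ChIP-specific peaks. In all 3 sets X is the highest chromosome and chromosome 2 the lowest of the autosomes, with 5.93 and 1.28 per Mb for IgG-only peaks.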

How the data were processed

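Peaks of an Nr1d1 ChIP (3 libraries) and of an IgG mock (1 library) over 1 input were used. The submitters' processing notes name BWA, HOMER and the build mm10, without versions or roles. The peak caller is not given in the sources used here. Per the file headers, the authors deposited for each peak its length and a q-value (FDR), given to 6 decimals. The score in the annotation tables deposited by the authors equalled the peak length. Lengths were multiples of 25 bp. Of 17111 IgG and 19586 ChIP peaks, 17110 and 19584 were annotated and used, with FDR joined by position. The depth of each library is unknown.

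Overlaps, densities and tests were computed in Python 3.11.15 (numpy 2.4.6, pandas 2.3.3, scipy 1.17.1). Shares were compared by two-sided Fisher's exact tests, Benjamini-Hochberg adjusted over 11 tests at a threshold of 0.05, with Newcombe intervals, after tests on simulated data. Gene bodies, strands and promoter windows came from RefSeq GRCm38.p6, the build of the files. A current symbol was found for the nearest gene of 79.8% of the peaks. A body counted when it held the whole peak, exons were not subtracted from its length, and strand was known for 17492 of 21887 protein-coding genes.

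The members and the 15 gene lists were chosen with earlier results of these data known. Densities per gene body, size classes, runs and promoter windows were added after first counts. Named were the first 10 peaks by FDR and length, the 8 genes with most peaks, up to 4 per list, and the 5 peaks nearest to a start and to a ChIP peak. Other names are marked, or are the top of a stated order. Some genes that this rule names are not reported here.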

Additional observations from a re-analysis of the deposited data

How the results depend on the processing

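Of 58 repeats of the 11 tests under other settings, 49 kept direction and side of the threshold, 4 lost and 2 gained a call, and 3 changed sign without a call. The cause was not tested in any of them. With an FDR of at most 0.01 in both lists, calls were lost for predicted genes against shared peaks (3.08 points), for an FDR printed as 0 against intergenic peaks (1.58 points) and for X against intergenic peaks (-0.764 points), X against ChIP-specific peaks gained one (2.61 points), and the share over 200 bp against intergenic peaks changed sign (-0.105 points). Without X and Y the FDR of 0 against intergenic peaks lost its call (1.09 points). With 1 peak per nearest gene, X against ChIP-specific peaks gained one (2.51 points). The share on X against shared peaks changed sign when 50% cover counted as shared (-0.0939 points) and when a peak within 1 kb did (-0.206 points). The IgG-only share of 70.1% became 68.2% with the 1 kb rule and 64.8% at the stricter FDR, where the density per Mb of body became 1.49. The 3 T cell lists kept 0 peaks under every setting run. Assignment by gene body raised glutamate receptor genes from 8 to 18 and phosphodiesterase genes from 1 to 3. With an FDR of at most 0.01, genes nearest to a peak fell from 12 to 6 for cadherins, from 20 to 12 for axon guidance, from 5 to 3 for GABA-A receptors and from 1 to 0 for phosphodiesterases, and without X and Y from 2 to 1 for cytokine receptors.

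Comparisons by intron number, GC content and dinucleotide runs, with their alternatives, were not run, as intron numbers and a genome were not used here. No paired analysis was possible because the lists carry no value per library, and leaving out a library was not possible for the same reason. Without read counts, weak IgG enrichment that gave no peak was not detectable.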
